A study of Homo sapiens with 9 samples.

Results

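The genes NFKBIA, NFKBIZ, TNFAIP3, BIRC3, RELB, CXCL1, CXCL8, CCL20, SAA1 and LCN2, a set of 10 NF-kB and acute inflammatory genes, are described here across transfections of the HCCLM3 line, which derives from a human liver cancer, with small interfering RNAs (siRNAs). The 10 genes were taken by symbol from the 20379 genes of the deposited table. The set was put together with its response to siRNA known, so its differences from the control libraries are given as a description. Counts of the 10 genes past a threshold against the control are printed beside the share of all genes, and nothing is read from them. The comparison of the 2 targeting siRNAs with each other was tested. Poly(A) RNA was sequenced from 9 libraries in 3 groups of 3, namely cells given a non-targeting siRNA (the control), cells given an siRNA against UXS1, which makes UDP-xylose for proteoglycan chains, and cells given an siRNA against MRPL42, a protein of the mitochondrial ribosome. All groups were transfected, and no untransfected group was analysed here. The labels give neither the siRNA sequences nor the time of harvest, and do not say whether the libraries came from separate cultures, so the spread may be technical. The table names the libraries of each group a, b and c, and these letters could not be matched to the labels' repeat numbers.

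NF-kB is a family of dimeric transcription factors held in the cytoplasm by inhibitor (IkB) proteins until receptors for TNF, IL-1 or bacterial products activate the IkB kinases. Its targets include its own brakes, among them NFKBIA and TNFAIP3, survival factors such as BIRC3, neutrophil and lymphocyte chemokines, and, in liver cells, secreted acute-phase proteins. NF-kB and the IL-6 pathway together drive the hepatic acute-phase response.

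The promoter elements of these genes are shown first, because recognition of a shared DNA site, the kB site, is what defines NF-kB targets. Promoter windows from RefSeq (GRCh38.p14), 250 bases before to 50 bases after an annotated start, matched 8 of the 10 genes in 9 windows, NFKBIZ having more than one start. RELB and SAA1 had no entry. The kB consensus, searched on both strands, was found in windows of 7 of the 8 genes and in 11.3% of all 35116 windows. The palindromic core GGAANTTCC, also read on both strands, was found in 4 of the 8 (NFKBIA, NFKBIZ, CXCL1 and CXCL8) and in 0.965% of all windows; some of its matches overlap consensus matches. These are matches of letters and not measured binding. One match per gene is shown with 15 bases on each side, 5′ to 3′ on the strand of the gene, with the match in capitals.
NFKBIA: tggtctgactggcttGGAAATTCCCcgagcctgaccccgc
NFKBIZ: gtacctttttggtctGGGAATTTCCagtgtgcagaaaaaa
TNFAIP3: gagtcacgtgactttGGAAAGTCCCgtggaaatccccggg
BIRC3: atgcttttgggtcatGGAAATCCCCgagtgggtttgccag
CXCL1: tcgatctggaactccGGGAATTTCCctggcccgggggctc
CXCL8: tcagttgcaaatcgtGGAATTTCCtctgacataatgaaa
CCL20: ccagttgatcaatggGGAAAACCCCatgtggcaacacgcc
LCN2: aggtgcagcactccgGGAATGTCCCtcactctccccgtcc

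The stretch shown for NFKBIA is chr14:35404806-35404845 on the minus strand, and its match begins 81 bases before the start. The others are on the plus strand. For NFKBIZ it is chr3:101827752-101827791, with the match 223 bases before the start, and for TNFAIP3 chr6:137867177-137867216, at 67 bases. A second TNFAIP3 match begins 55 bases before the start. For BIRC3 the stretch is chr11:102317270-102317309, at 199 bases, with a further match at 135 bases. For CXCL1 it is chr4:73869299-73869338, at 79 bases, and for CXCL8, on the same chromosome, chr4:73740463-73740501, at 91 bases, where only the shorter core matched. For CCL20 it is chr2:227813748-227813787, at 79 bases, and for LCN2 chr9:128149263-128149302, at 175 bases. All distances are from the RefSeq start, which for TNFAIP3, BIRC3, CXCL8, CCL20 and LCN2 lies inside the gene span given with the levels below, from the table's own annotation.

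Library totals ranged from 15265959 to 22400560 estimated counts, and all 10 genes passed the filter on low counts that left 12657 genes for testing. CXCL1 and SAA1 have counts of 13 or fewer in each control library, and passed mainly through the targeting libraries. One library stood apart before any gene was singled out. Control library c correlated with the other 8 at r of 0.956 to 0.967 across genes on the log2 scale, against 0.985 to 0.995 among those 8, and each comparison with the control is therefore given with and without it. The epithelial keratin KRT8 was abundant in every library, at 4196 to 6481 CPM (counts scaled to a common library total), whereas the liver product ALB was low, at 3.61 to 14.4 CPM. UXS1 mRNA did not pass the test in cells given its siRNA (log2 fold change -0.17 ± 0.09 SE, adjusted p = 0.348 by edgeR), with 138 to 145 CPM against 144 to 180 CPM in the control, ranges that overlap. MRPL42 mRNA stood at 81.8 to 104 CPM after its siRNA and 100 to 147 CPM in the control (log2 fold change -0.39 ± 0.14 SE, adjusted p = 0.185 by edgeR), so neither target passed the test. Without control c the log2 fold changes were smaller, at -0.08 ± 0.06 for UXS1 and -0.24 ± 0.11 for MRPL42 (adjusted p = 0.519 and 0.252 by edgeR). Between the targeting siRNAs, MRPL42 mRNA was higher after UXS1 siRNA, at 115 to 131 CPM, without overlap (5.79% of all genes). That log2 difference was 0.41 ± 0.14, and 0.41 ± 0.09 without control c (adjusted p = 0.868 by edgeR). For UXS1 mRNA these 2 groups overlapped. Directions below refer to the library labels.

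Across the 3 groups, 5 of the 10 genes, NFKBIA, NFKBIZ, BIRC3, CXCL1 and SAA1, were higher in each of the 6 targeting libraries than in each control library, and SAA1 and CXCL1 showed the widest differences. Taken 1 siRNA at a time, the targeting libraries lay above every control library for 15.3% (UXS1 siRNA) and 11.0% (MRPL42 siRNA) of all genes. The share for both siRNAs at once was not counted. TNFAIP3, RELB and CXCL8 overlapped the control in both targeting groups, while CCL20 and LCN2 lay above the control in the UXS1 group alone and overlapped it in the MRPL42 group. The lowest library was control c for all 10. Values are CPM of the library total after trimmed-mean (TMM) scaling, listed in the order a, b, c.

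**Figure D1:**
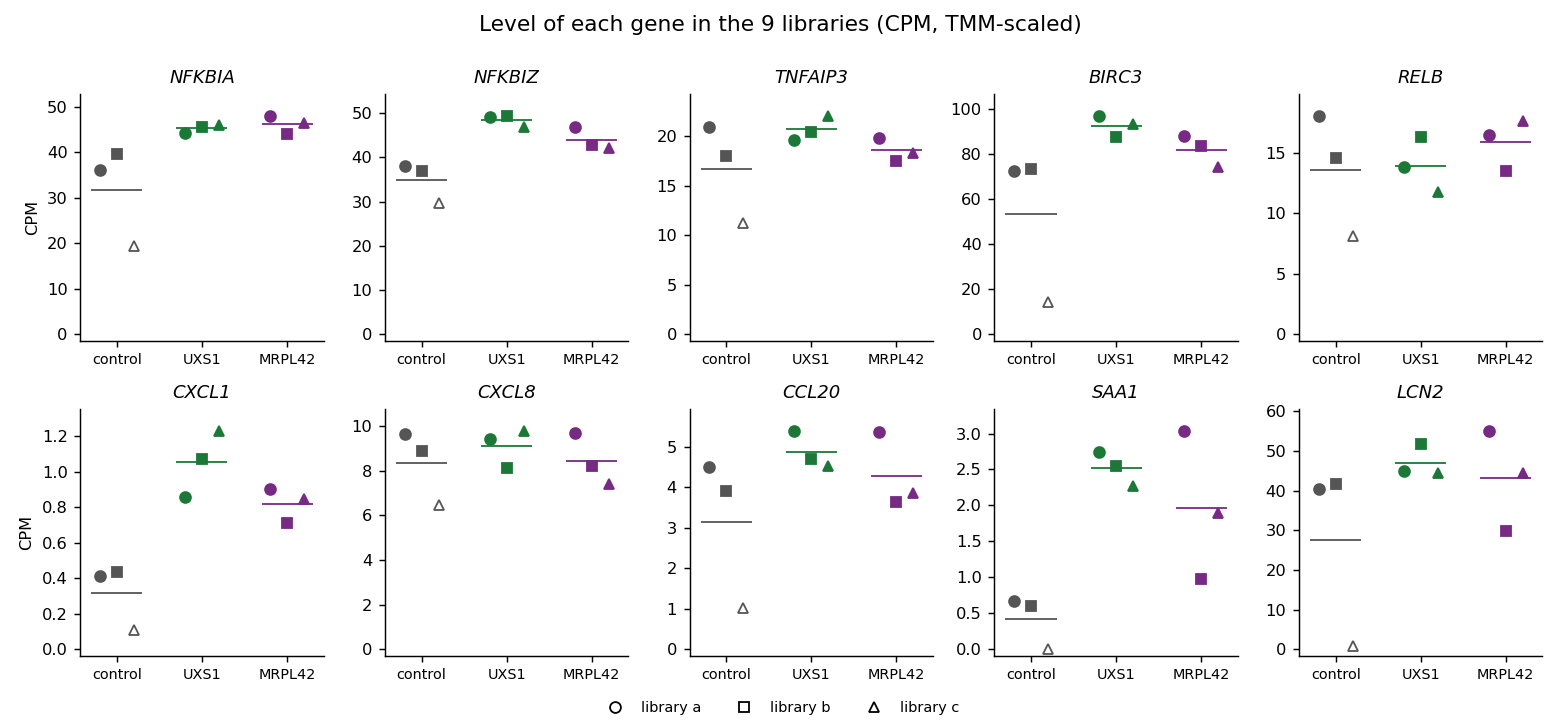
Level of each gene (CPM, vertical axis from 0, own scale for each gene) in the control, UXS1 siRNA and MRPL42 siRNA groups. Circles, squares and triangles are libraries a, b and c, the open triangle is control library c, and lines are means of 3 libraries; control c is the lowest point in all 10 panels, at 0.742 CPM for LCN2 and 0 for SAA1.

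Among the feedback inhibitors, NFKBIA encodes IkBα, which binds NF-kB dimers and returns them to the cytoplasm. It lies at chr14:35401511-35404749 (GRCh38). NFKBIA stood at 36.2, 39.6 and 19.5 CPM in the control, 44.3, 45.5 and 46.0 CPM after UXS1 siRNA, and 48.0, 44.0 and 46.6 CPM after MRPL42 siRNA. The targeting libraries were tightly grouped and all lay above the 3 control libraries. The log2 fold change of NFKBIA was 0.51 ± 0.21 (SE) for UXS1 siRNA and 0.54 ± 0.21 for MRPL42 siRNA, and 0.25 ± 0.07 and 0.28 ± 0.07 without control c.

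NFKBIZ (chr3:101827991-101861022) encodes IkBζ, a nuclear IkB protein that acts as a cofactor for a second wave of inflammatory genes. Its levels were 38.0, 36.8 and 29.8 CPM in the control, 49.2, 49.3 and 46.9 CPM after UXS1 siRNA, and 47.0, 42.8 and 42.1 CPM after MRPL42 siRNA. This gene depended least on control c: the lowest targeting library exceeded the highest control library, and control c was closer to its group than for any other of the 10 genes. The log2 fold change of NFKBIZ was 0.48 ± 0.10 for UXS1 siRNA and 0.33 ± 0.10 for MRPL42 siRNA, and 0.36 ± 0.07 and 0.23 ± 0.07 without control c.

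TNFAIP3 (chr6:137867188-137883312) encodes A20, a ubiquitin-editing enzyme that shuts off signalling from TNF and Toll-like receptors. TNFAIP3 was at 20.9, 18.0 and 11.2 CPM in the control, 19.6, 20.4 and 22.0 CPM after UXS1 siRNA, and 19.8, 17.5 and 18.3 CPM after MRPL42 siRNA. Both targeting groups overlapped control libraries a and b. The log2 fold changes of 0.31 ± 0.19 and 0.15 ± 0.19 became 0.07 ± 0.10 and -0.08 ± 0.10 without control c, so the sign for MRPL42 siRNA depended on that library.

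BIRC3 (chr11:102317450-102339403) encodes cIAP2, a ubiquitin ligase at the TNF receptor that promotes survival signalling. BIRC3 had 72.2, 73.3 and 14.4 CPM in the control, 96.7, 87.5 and 93.1 CPM after UXS1 siRNA, and 88.0, 83.5 and 74.0 CPM after MRPL42 siRNA. The UXS1 libraries were well clear of the control, whereas the lowest MRPL42 library was barely above control b. Control c raised both the difference and its error: the log2 fold changes were 0.79 ± 0.45 and 0.62 ± 0.45 with it, and 0.33 ± 0.08 and 0.16 ± 0.08 without it.

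RELB (chr19:45001430-45038198), a DNA-binding subunit of the non-canonical pathway, was the only NF-kB subunit among the 10 genes. It stood at 18.1, 14.6 and 8.11 CPM in the control, 13.8, 16.3 and 11.8 CPM after UXS1 siRNA, and 16.5, 13.5 and 17.7 CPM after MRPL42 siRNA. All 3 groups overlapped. The log2 fold changes of RELB were 0.05 ± 0.26 and 0.23 ± 0.26 with all libraries, and -0.23 ± 0.15 and -0.04 ± 0.15 without control c, so both signs turned.

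The chemokines did not share one pattern. CXCL1 (chr4:73869393-73871242), a neutrophil attractant that signals through CXCR2, was scarce, with 8, 8 and 2 counts in the control, 15, 24 and 19 counts after UXS1 siRNA, and 14, 11 and 16 counts after MRPL42 siRNA. In CPM this is 0.413, 0.435 and 0.106, then 0.859, 1.07 and 1.23, then 0.904, 0.711 and 0.845. Every targeting library lay above every control library. The log2 fold change of CXCL1 was 1.70 ± 0.40 for UXS1 siRNA and 1.35 ± 0.42 for MRPL42 siRNA, and 1.28 ± 0.33 and 0.94 ± 0.34 without control c, on few counts.

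CXCL8 (chr4:73740506-73743716), interleukin-8, also attracts neutrophils through CXCR1 and CXCR2 and lies in the same chemokine cluster. CXCL8 stood at 9.65, 8.86 and 6.47 CPM in the control, 9.39, 8.14 and 9.78 CPM after UXS1 siRNA, and 9.69, 8.21 and 7.39 CPM after MRPL42 siRNA. The targeting libraries fell within or near the range of control a and b. Its log2 fold changes were 0.13 ± 0.17 and 0.02 ± 0.17, and -0.05 ± 0.13 and -0.15 ± 0.14 without control c. Its deposited counts carry decimals.

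CCL20 (chr2:227805739-227817564), the ligand of CCR6 on lymphocytes and dendritic cells, was at 4.49, 3.91 and 1.01 CPM in the control, 5.38, 4.69 and 4.53 CPM after UXS1 siRNA, and 5.36, 3.62 and 3.85 CPM after MRPL42 siRNA. The UXS1 group lay just above the control, and 2 of the 3 MRPL42 libraries lay below control a and b. The log2 fold changes of CCL20 were 0.63 ± 0.41 and 0.44 ± 0.42 with all libraries, and 0.20 ± 0.18 and 0.01 ± 0.19 without control c.

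Of the acute-phase genes, SAA1 (chr11:18266174-18269977), serum amyloid A, is a major acute-phase apolipoprotein of liver. It had 13, 11 and 0 counts in the control, 47.9, 56.9 and 35 estimated counts after UXS1 siRNA, and 46.8, 15 and 36 after MRPL42 siRNA. In CPM, SAA1 stood at 0.671, 0.598 and 0, then 2.75, 2.55 and 2.27, then 3.04, 0.970 and 1.90. The log2 fold change of SAA1 was 2.56 ± 0.65 for UXS1 siRNA and 2.20 ± 0.67 for MRPL42 siRNA, and 1.97 ± 0.42 and 1.61 ± 0.44 without control c. SAA1 shares reads with the near-identical SAA2, so its own level is uncertain. Summed over both genes the counts were 13, 12 and 1 in the control, 49, 65 and 36 after UXS1 siRNA, and 50, 15 and 39 after MRPL42 siRNA, so the order of the groups was the same for the sum, with MRPL42 library b the lowest of the targeting libraries.

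LCN2 (chr9:128149071-128153455) encodes lipocalin 2, which binds bacterial siderophores and is secreted in inflammation. LCN2 was at 40.4, 41.6 and 0.742 CPM in the control, 44.9, 51.9 and 44.4 CPM after UXS1 siRNA, and 55.0, 29.9 and 44.5 CPM after MRPL42 siRNA. Control c held 14 counts of LCN2, whereas control a and b held 783 and 765. The log2 fold changes of 0.77 ± 0.78 and 0.65 ± 0.79 were smaller than or about equal to their errors, and were 0.19 ± 0.19 and 0.07 ± 0.19 without control c.

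SAA1, CCL20 and LCN2 have transcripts under 1000 bases (615, 800 and 835), and short transcripts differed between libraries. Over 726 other genes of that length, the mean log2 CPM relative to the 9-library mean was -0.21, -0.28 and -0.37 in the control, 0.15, 0.22 and 0.03 after UXS1 siRNA, and 0.38, -0.15 and 0.22 after MRPL42 siRNA. The highest and lowest targeting libraries on that scale, MRPL42 a and MRPL42 b, were also the highest and lowest targeting libraries for SAA1 and LCN2. For CCL20, MRPL42 b was again the lowest, but UXS1 a was the highest, at 5.38 CPM beside 5.36 CPM in MRPL42 a. SAA1 in MRPL42 b stood at 39.3% of the mean of MRPL42 a and c, LCN2 at 60.0% and CCL20 at 78.6%. With an offset for transcript length and without control c, the log2 fold changes became 1.50 (UXS1 siRNA) and 1.09 (MRPL42 siRNA) for SAA1, -0.14 and -0.30 for LCN2, and -0.15 and -0.37 for CCL20. In that fit 6 of the 10 genes were above 0 for UXS1 siRNA (49.4% of all genes) and 5 of 10 for MRPL42 siRNA (49.5%), with medians of 0.15 and 0.09 over the 10 beside -0.002 for both over all genes. The part of transcript length in these differences beyond this offset was not tested.

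**Figure D2:**
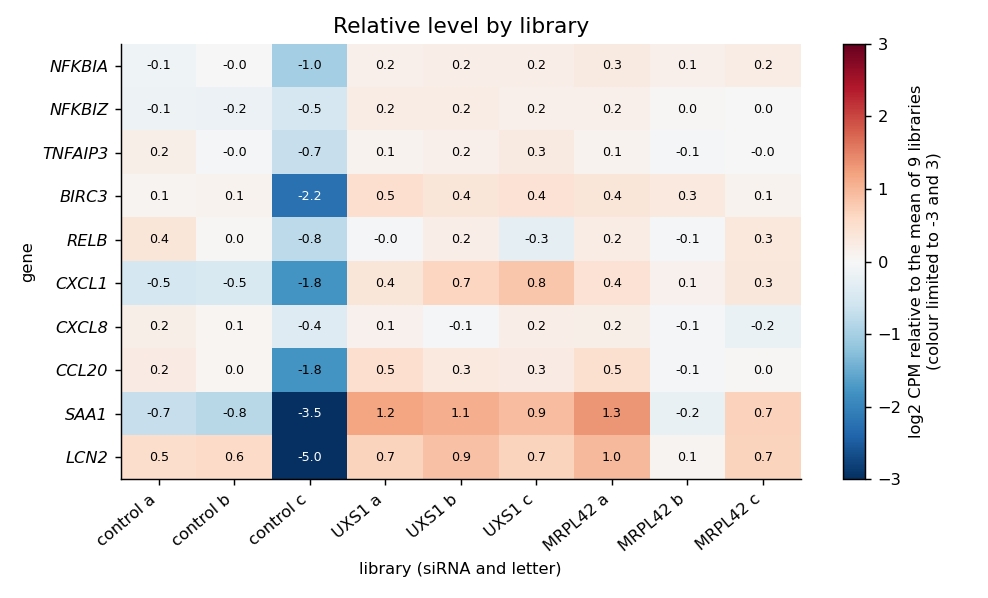
Log2 CPM of each gene (rows) in each library (columns) relative to its mean over the 9 libraries; blue is below and red above that mean. The column of control library c is the lowest for all 10 genes, and the columns of control a and b differ little from each other.

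Seen against all genes, the median log2 fold change of the 10 was 0.57 for UXS1 siRNA and 0.49 for MRPL42 siRNA, beside medians of -0.005 and -0.01 over all genes tested. Without control c these medians were 0.22 and 0.11. All 10 values were above 0 for UXS1 siRNA, a share to be set beside 49.0% of all genes, and all 10 for MRPL42 siRNA, beside 47.9%. Without control c, 8 of 10 (48.2% of all genes) and 7 of 10 (47.7%) were above 0, and RELB and CXCL8 fell on the other side for both siRNAs, TNFAIP3 for MRPL42 siRNA. Every UXS1 library exceeded every control library for 7 of the 10 genes (15.3% of all genes) and every MRPL42 library did so for 5 (11.0%). Without control c these counts were again 7 (22.1%) and 5 (16.3%). The genes were chosen on these same comparisons, so the counts are descriptive. Control a and b also differed from the targeting libraries in the summed level of 7 histone transcripts. Such transcripts mostly lack a poly(A) tail, and are taken here as a possible sign of RNA quality or selection. The 7 summed to 24.3 and 24.1 CPM in control a and b and to 27.1 to 33.0 CPM in the 6 targeting libraries. The mean relative log2 CPM of the 5 tested was -0.59 and -0.44, against -0.06 to 0.08. Neither the sum nor the mean overlapped, though H2AC6 taken singly did. So did H4C3 and H3C2, both under the filter, at 0 to 0.163 CPM in every library. The part of these transcripts in the differences that stayed without control c was not tested.

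In edgeR's quasi-likelihood fit over all genes, 0 of the 10 had an adjusted p under 0.05 in either comparison with the control, where 0% of all genes passed as higher and 0.0158% as lower for UXS1 siRNA, and 0% in both directions for MRPL42 siRNA. At an unadjusted p under 0.05 the number was 4 of 10 for each siRNA (17.8% and 20.2% of all genes). DESeq2 called 1 of the 10 (NFKBIZ) for UXS1 siRNA, beside 3.63% of all genes, and 0 of 10 for MRPL42 siRNA, beside 5.35%. Unweighted limma-voom called 0 of 10 for either siRNA (0.0158% and 0% of all genes). With weights for the quality of each library, limma-voom called 3 of the 10 (NFKBIZ, CXCL1 and SAA1) for UXS1 siRNA, beside 10.4% of all genes, and 4 (these and NFKBIA) for MRPL42 siRNA, beside 15.0%. Without control c, edgeR called 2 of the 10 (NFKBIZ and SAA1) as higher for UXS1 siRNA (0.502% of all genes) and 0 for MRPL42 siRNA (0.533%), and 0 as lower for either (1.07% and 0.792%). At an unadjusted p under 0.05 the numbers without control c were 5 and 4 of 10 (19.2% and 19.6% of all genes). These calls are on the values that chose the genes, and CXCL1 and SAA1 passed the filter mainly through the targeting libraries, so nothing is read from them.

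**Figure D3:**
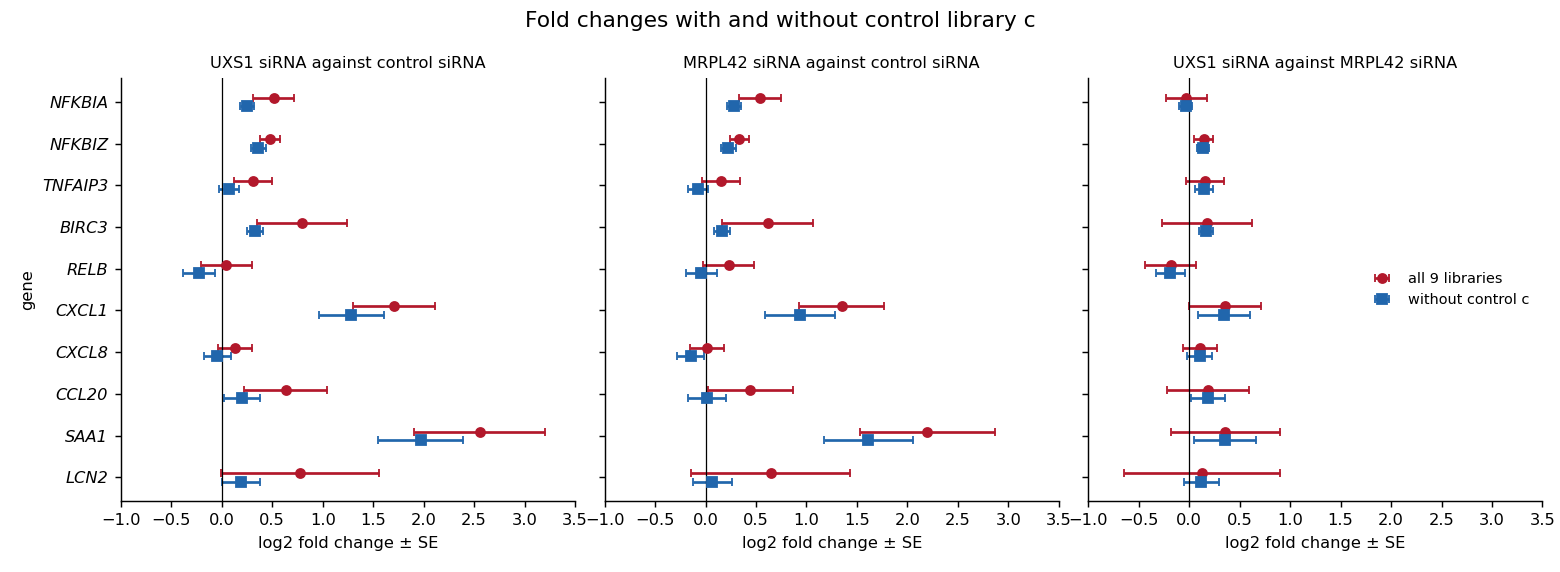
Log2 fold change ± SE of each gene in the 3 comparisons, from the fit of all 9 libraries (red circles) and from the fit without control library c (blue squares). Removing control c moves most genes towards 0 and narrows the error in both comparisons with the control, from 0.79 ± 0.45 to 0.33 ± 0.08 for BIRC3 after UXS1 siRNA. In the comparison of the targeting siRNAs the log2 differences stay nearly as they were, but their errors narrow too, from 0.18 ± 0.44 to 0.17 ± 0.07 for BIRC3.

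The comparison between the targeting siRNAs asks whether the 2 siRNAs left these genes at different levels. For the 10 genes it found no difference past the threshold. In edgeR's test 0 of 10 had an adjusted p under 0.05 (0% of all genes in each direction), each of the 10 with an adjusted p of 1.00, and 0 of 10 had an unadjusted p under 0.05 (1.72% of all genes). DESeq2 and limma-voom with and without library weights also called 0 of the 10, and 0% of all genes. The 3 UXS1 libraries exceeded the 3 MRPL42 libraries for 0 of 10 genes (5.79% of all genes). The log2 difference, UXS1 siRNA minus MRPL42 siRNA, ran from -0.18 for RELB to 0.36 for SAA1, with a median of 0.15 beside -0.004 over all genes, and it was above 0 for 8 of 10 (48.6% of all genes).

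The intervals of these differences vary in width. For NFKBIZ the difference was 0.14 (95% interval -0.07 to 0.36), for NFKBIA -0.03 (-0.49 to 0.43) and for TNFAIP3 0.16 (-0.27 to 0.58). For SAA1 it was 0.36 (-0.86 to 1.58) and for LCN2 0.13 (-1.62 to 1.87), too wide to say that the siRNAs left these genes at like levels. Without control c the intervals were narrower, with 0.36 (-0.32 to 1.03) for SAA1 and 0.12 (-0.26 to 0.50) for LCN2. BIRC3 differed by 0.18 (-0.82 to 1.18) with all libraries and by 0.17 (0.01 to 0.33) without control c, which enters this comparison through the estimate of the spread. In that fit BIRC3 was the only one of the 10 with an unadjusted p under 0.05 (adjusted p = 0.868 by edgeR; 5.35% of all genes had such an unadjusted p). The sign for LCN2 rested on MRPL42 library b: without it the difference was -0.08.

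Control library c is taken separately, since the rule for these genes singles it out. For 5 of the 10 genes (BIRC3, CXCL1, CCL20, SAA1 and LCN2) it was over 2-fold below both other control libraries, against 4.17% of all genes tested, and for 0 of 10 over 2-fold above both (2.97%). It was the lowest of the 9 libraries for 10 of 10 genes, against 31.8% of all genes. Control a and b were within 0.5 log2 units of each other for 10 of 10 (95.3%). The median log2 difference of control c from the mean of a and b was -1.50 over the 10 genes and -0.005 over all genes. The genes were chosen with their differences from the control known, and a low control c adds to those differences. These counts are therefore descriptive.

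The size of the drop varied from gene to gene. The mean of control a and b was 55.2 times control c for LCN2, 5.05 times for BIRC3 and 4.17 times for CCL20. For CXCL1 the ratio was 3.99 (95% exact interval 0.939 to 35.8, for counting error only), resting on 2 counts in control c. For SAA1, with 0 counts in control c, control a and b were at least 3.99-fold higher, taking a floor of 3 counts per library. The inhibitors dropped less, by a ratio of 1.94 for NFKBIA, 1.73 for TNFAIP3 and 1.26 for NFKBIZ, as did RELB (2.01) and the chemokine CXCL8 (1.43). Among the 12657 genes, 38 had a lower value in control c relative to a and b than LCN2, and 2351 had a lower one than NFKBIZ. Over the other 8 libraries the highest level was 1.26 to 1.84 times the lowest for 8 of the 10 genes, and 2.98 times for CXCL1 and 5.08 times for SAA1.

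Other features moved with control c. The 7 hepatocyte markers tested, of 11 listed, had a mean relative log2 CPM of -1.20 there, against -0.03 to 0.31 in the other 8 libraries. All 11 summed to 186 CPM in control c, against 207 to 237 CPM elsewhere. FGB, a fibrinogen chain, was at 1.59 CPM in control c and 34.2 and 33.7 CPM in a and b. HNF4A, a transcription factor of hepatocytes, went the other way, at 111 CPM in control c and 57.6 and 57.0 CPM in a and b. The 7 listed histone transcripts, 5 of them tested, summed to 59.6 CPM in control c against 24.1 to 33.0 CPM elsewhere. The fibroblast list (3 of 6 tested) summed to 303 CPM against 53.9 to 64.0, nearly all of it LUM, at 277 CPM in control c, while COL1A1 and COL1A2 stayed under the filter. The leukocyte list (3 of 9 tested) summed to 133 CPM against 79.7 to 118, a sum set by CD68, while its mean relative log2 CPM was lowest in control c, at -0.72 against -0.24 to 0.25. LYZ was at 1.22 CPM in control c against 4.90 and 4.73 in a and b, and ITGAM at 1.59 against 2.22 and 2.12 CPM, with MS4A1 at 0 in every library and CD3E at 1 count in a single library. The endothelial list (2 of 4 tested) summed to 24.0 CPM against 58.7 to 72.0, with CDH5 at 0 throughout, and the 4 epithelial markers to 7129 CPM against 5583 to 8176. The mean relative log2 CPM of the epithelial markers was highest in control c, at 0.44 against -0.19 to 0.16, with CDH1 at 81.6 CPM against 22.9 to 28.3. In bulk RNA, fewer cells of a type and less RNA per cell cannot be told apart, and the part of these features in the drop of the 10 genes was not tested.

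Set side by side per length, as CPM per kilobase of transcript, the genes came in the same order in the 2 targeting groups. After UXS1 siRNA, LCN2 was highest at 56.3 ± 5.01 CPM per kilobase (SD, n = 3), followed by NFKBIA at 29.1 ± 0.538, BIRC3 at 21.3 ± 1.07 and NFKBIZ at 12.4 ± 0.343, none of which overlapped its neighbour. RELB at 6.09 ± 0.991, CCL20 at 6.09 ± 0.566, CXCL8 at 5.34 ± 0.503 and TNFAIP3 at 4.51 ± 0.264 each overlapped the next, down to SAA1 at 4.10 ± 0.395. CXCL1 was lowest at 0.961 ± 0.170, without overlap. After MRPL42 siRNA the levels ran from LCN2 at 51.7 ± 15.1 through NFKBIA at 29.7 ± 1.29, BIRC3 at 18.8 ± 1.65 and NFKBIZ at 11.2 ± 0.667 to CXCL1 at 0.748 ± 0.0901. There RELB, CCL20 and CXCL8 overlapped in turn, as did TNFAIP3 and SAA1. In the control, LCN2 stood at 33.0 ± 27.8 CPM per kilobase, control c widened every range, and TNFAIP3 at 3.65 ± 1.08 and SAA1 at 0.687 ± 0.598 were the only neighbours that did not overlap.

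The rest of the pathway was described with 9 lists of other genes, 134 of which are in the table and 108 of which were tested in the fit of all libraries. With all 9 libraries, 0 of the 108 passed edgeR's adjusted threshold in either direction in any of the 3 comparisons, while 17, 25 and 3 had an unadjusted p under 0.05 for UXS1 siRNA, MRPL42 siRNA and the 2 siRNAs against each other. These are 15.7%, 23.1% and 2.78% of the 108, beside 17.8%, 20.2% and 1.72% of all genes. With DESeq2, 1 was called higher and 1 lower for UXS1 siRNA (1.85% of the 108, beside 3.63% of all genes) and 1 higher for MRPL42 siRNA (0.926%, beside 5.35%). Unweighted limma-voom called 0 for both. With library weights it called 7 higher and 2 lower for UXS1 siRNA (8.33%, beside 10.4% of all genes), then 16 higher and 7 lower for MRPL42 siRNA (21.3%, beside 15.0%). Without control c, edgeR called 1 gene higher and 1 lower with UXS1 siRNA (0.502% and 1.07% of all genes) and 1 higher with MRPL42 siRNA (0.533%). IL18, an inflammasome-processed cytokine, rose after UXS1 siRNA (24.8 and 27.5 CPM in control a and b against 35.9, 35.1 and 37.4 CPM; log2 fold change 0.45 ± 0.09, adjusted p = 0.0340 by edgeR). PLAU, the urokinase protease, fell in that comparison (31.2 and 29.4 against 23.3, 23.1 and 23.3 CPM; log2 fold change -0.40 ± 0.07, adjusted p = 0.0193). IL32, an inflammatory cytokine, rose after MRPL42 siRNA (40.2 and 37.4 against 67.6, 51.3 and 62.0 CPM; log2 fold change 0.63 ± 0.10, adjusted p = 0.0203). Control c held 36.2, 34.3 and 50.8 CPM of IL18, PLAU and IL32, above control a and b in each case. IL18 and IL32 have short transcripts (971 and 906 bases), a class that was lower in the control libraries, as given above. With an offset for transcript length and without control c, edgeR called 1 list gene higher and 3 lower for UXS1 siRNA (3.7% of the 108). For MRPL42 siRNA it called 2 higher and 2 lower (3.7%). Counts over all genes in that fit are given in the closing section. Values of single list genes in that fit were not read out, so the part of transcript length in the IL18 and IL32 calls was not tested.

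**Figure D4:**
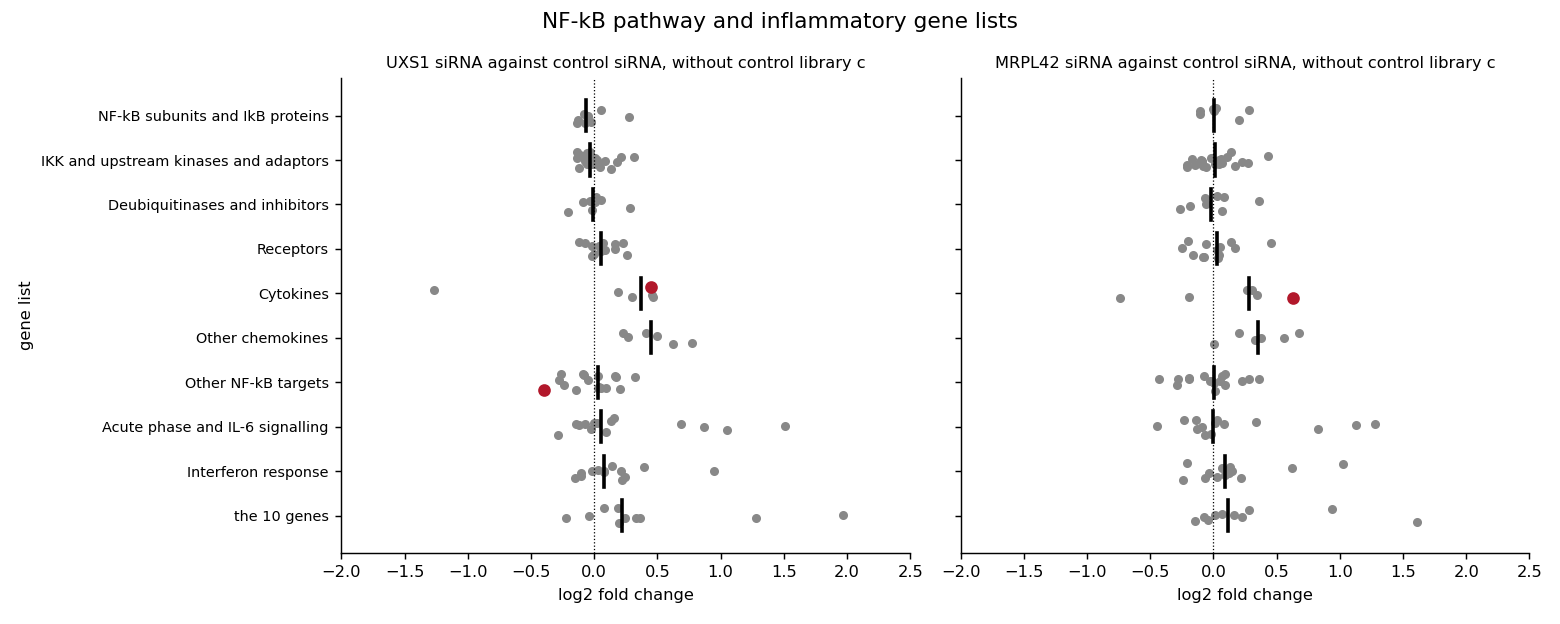
Log2 fold change of each tested gene of the 9 lists and of the 10 genes, without control library c, for UXS1 siRNA (left) and MRPL42 siRNA (right). Points are genes, spread vertically for legibility, black bars are list medians, and red points passed the adjusted threshold (IL18 and PLAU on the left, IL32 on the right; the 10 genes are not marked); the chemokine points lie above 0 in both panels.

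In 4 of the 6 other chemokines tested, control c was over 2-fold below both other control libraries (4.17% of all genes), with a median log2 difference of -2.04. CXCL5, a neutrophil chemokine, was at 91.3, 98.3 and 18.3 CPM in the control, 162, 141 and 139 CPM after UXS1 siRNA, and 151, 117 and 103 CPM after MRPL42 siRNA. Its targeting libraries all lay above the control, with log2 fold changes of 1.09 and 0.84, or 0.62 and 0.38 without control c, none past the adjusted threshold. CXCL3, another CXCR2 ligand, was at 0.774, 0.924 and 0.106 CPM in the control and 1.27 to 1.55 CPM in the 6 targeting libraries, also without overlap. CXCL16, a membrane-bound chemokine, ran from 43.7 to 57.6 CPM in the control and from 59.0 to 71.5 CPM in the targeting libraries. All 6 tested chemokines had values above 0 for UXS1 siRNA (49.0% of all genes) and for MRPL42 siRNA (47.9%). Their medians were 0.88 and 0.78, or 0.45 and 0.35 without control c, with 0 of 6 past the threshold.

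Among acute-phase and IL-6 signalling genes, 14 were tested, and control c was over 2-fold below both other control libraries for 6 of them (4.17% of all genes). Their medians of 0.61 and 0.18 became 0.06 and -0.001 without control c. FGG, a fibrinogen chain, had 16.8, 19.0 and 0 CPM in the control, 17.4, 16.9 and 19.9 CPM after UXS1 siRNA, and 15.1, 11.5 and 13.0 CPM after MRPL42 siRNA, so the targeting libraries were near or below control a and b. HAMP, the iron-regulating hormone hepcidin, was at 0.671, 1.47 and 0.212 CPM in the control, 2.69, 3.44 and 2.98 CPM after UXS1 siRNA, and 3.42, 1.49 and 2.85 CPM after MRPL42 siRNA, and did not pass the threshold. The HAMP transcript is short too, at 620 bases, and the part of its length was not tested. IL6ST, the shared receptor chain gp130, stood at 230 to 278 CPM in the control and at 185 to 253 CPM in the targeting libraries.

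Among the genes of the signalling machinery, list medians were near 0 and members lay on both sides. NFKBIE and ZC3H12A were higher, and TAB3 and BIRC2 lower, in all 6 targeting libraries than in the control. They are among the genes named for their small unadjusted p, and the share of all genes with such a pattern was not counted. The 8 other subunits and IkB proteins had medians of 0.003 and 0.06 for UXS1 and MRPL42 siRNA, the 23 kinases and adaptors -0.02 and 0.05, the 8 deubiquitinases and inhibitors -0.04 and -0.04, and the 13 receptors 0.04 and 0.05. NFKB1, the precursor of p50, was at 75.8, 74.7 and 54.2 CPM in the control and 66.9 to 74.4 CPM in the targeting libraries. NFKBIE, which encodes IkBε, was at 6.81, 7.12 and 4.67 CPM in the control and 7.44 to 9.40 CPM in the targeting libraries, and BCL3, a nuclear IkB protein, at 31.0 to 43.0 and 30.0 to 40.7 CPM. TAB3, an adaptor of the TAK1 kinase, was lower in all 6 targeting libraries (16.6 to 19.2 CPM) than in the control (19.9 to 21.2 CPM), and SHARPIN, of the linear ubiquitin ligase, ran from 42.6 to 53.6 CPM in the control and 50.8 to 70.9 CPM otherwise. BIRC2, the paralogue of BIRC3, stood at 104 to 108 CPM in the control and 87.3 to 102 CPM in the targeting libraries, with log2 fold changes of -0.09 and -0.19.

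ZC3H12A, an RNase that degrades inflammatory mRNAs, was at 13.9 to 14.4 CPM in the control and 16.4 to 19.9 CPM in the 6 targeting libraries, which did not overlap. TAX1BP1, an adaptor for A20, ran from 256 to 317 CPM and from 219 to 267 CPM, and CYLD, a deubiquitinase, from 40.1 to 54.9 CPM and from 42.9 to 49.8 CPM. The overlap for CYLD came from control c, the lowest, as control a and b were at 54.0 and 54.9 CPM. TLR6, a lipopeptide receptor, was lower in the MRPL42 group (11.1 to 12.6 CPM) than in the control (14.0 to 16.7 CPM), and TNFRSF12A, the TWEAK receptor, overlapped the control at 230 to 320 against 194 to 260 CPM. Control c was the highest control library for TNFRSF12A, and control a and b, at 219 and 194 CPM, lay below all targeting libraries, with log2 fold changes without control c of 0.26 and 0.46. None of the genes named in these lists apart from IL18, PLAU and IL32 passed edgeR's adjusted threshold in any of the comparisons, with or without control c.

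The remaining lists were mixed. The 6 cytokines had medians of 0.27 and -0.11 for UXS1 and MRPL42 siRNA, or 0.37 and 0.28 without control c. IL1A, the alarmin interleukin-1α, was highest in control c at 1.91 CPM and was at 0.194 to 0.775 CPM in the targeting libraries. The 17 other NF-kB targets had medians of 0.12 and 0.08, among them GADD45B, a stress-induced regulator of MAP kinases, at 18.9, 16.0 and 8.64 CPM in the control and 19.3 to 24.8 CPM in the targeting libraries. The 13 interferon-response genes had medians of 0.10 and 0.19. ISG15, a ubiquitin-like modifier, was at 21.7, 17.6 and 31.2 CPM in the control, 40.1, 42.5 and 31.8 CPM after UXS1 siRNA, and 58.6, 23.1 and 38.8 CPM after MRPL42 siRNA. IRF9, the DNA-binding part of the interferon factor ISGF3, stood at 2.98 to 4.11 CPM after UXS1 siRNA and 1.95 to 2.72 CPM after MRPL42 siRNA, and IFI6 at 1.74 to 2.49 CPM in the control and 2.14 to 3.88 CPM in the targeting libraries. ISG15 and IFI6 also have short transcripts (674 and 822 bases), and the part of their length was not tested.

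The genes whose levels over the 9 libraries came nearest to the mean pattern of the 10 were DAPK2, QPRT, C1R, DHRS3 and CYB5A. Likeness was the root-mean-square distance of relative log2 CPM over the 9 libraries, which was 0.0859, 0.0861, 0.0926, 0.114 and 0.117 in that order, among genes with a mean of at least 5 CPM. C1R, a complement protease, was at 62.2, 63.3 and 15.7 CPM in the control, 80.0, 80.0 and 72.8 CPM after UXS1 siRNA, and 77.6, 66.3 and 71.0 CPM after MRPL42 siRNA, and so again was lowest in control c. Among the 10 genes themselves, CCL20 at 0.129 and BIRC3 at 0.199 were nearest to the mean pattern, and SAA1 at 0.847 and LCN2 at 1.17 were farthest from it.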

How the data were processed

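Per the labels, poly(A) RNA of 9 HCCLM3 libraries was sequenced. The authors deposited 1 table of estimated counts and TPM per gene, of which the 9 TPM columns were not used, since the columns' letters do not name single samples and 1 measure per library was kept; fastp, Bowtie2, HISAT2, edgeR and hg38 are named in the submitters' processing notes, without roles or versions. Columns spelled USX1 were read as UXS1. The deposited estimated counts were rounded to whole numbers. Genes were filtered with filterByExpr (12657 kept of 20379; 646 unnamed by symbol), scaled by TMM and tested with edgeR 4.0.16 (quasi-likelihood, 1 mean per group, all 9 libraries, Benjamini-Hochberg threshold 0.05) in R 4.3.3. Levels were compared between genes as CPM per kilobase of GENCODE 29 transcript length, in place of the planned TPM; gene positions came from GENCODE 29 (GRCh38), promoter windows from RefSeq. The fit was tested on simulated data. DESeq2 1.42.0, limma-voom (limma 3.58.1), other scalings and filters, length offsets and omitted libraries were alternatives. Named list genes were those past the threshold (up to 5 per list) and otherwise the 2 with the smallest unadjusted p in either comparison with the control, with and without control c. The 10 genes and all lists were chosen with earlier results of these data known.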

Additional observations from a re-analysis of the deposited data

How the results depend on the processing

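Counts below are of all genes past the adjusted threshold, then of the 10 genes where these moved. For UXS1 siRNA against control (2 and 0), they were 8 with a length offset, 316 and 3 with this offset and control c left out, 1206 and 5 without control c and MRPL42 b, 253 from the 6 libraries compared, 1315 and 3 with library weights, and 460 and 1 with DESeq2. Leaving out 1 library gave 0 to 355 genes and 0 to 2 of the 10: 201 and 2 without control c, 355 and 1 (NFKBIZ) without MRPL42 b, and 0 genes without any other. For MRPL42 siRNA against control (0 and 0), they were 2 with a length offset, 293 with it and without control c, 1856 and 2 without control c and MRPL42 b, 1897 and 4 with library weights and 677 with DESeq2. Leaving out 1 library gave 0 to 810 genes (169 without control c, 810 without MRPL42 b, 0 otherwise) and 0 of the 10. Between the targeting siRNAs, the count of genes was 1 without control c and MRPL42 b and 0 otherwise, and 0 of the 10 were called in any setting; the LCN2 difference ran from -0.0787 (without MRPL42 b) to 0.330 (without MRPL42 a) on leaving out 1 library, and was -0.0777 without control c and MRPL42 b. The planned fit on log2(TPM + 1) was not run, because the TPM columns were not used. With the library letter as a replicate block, UXS1 siRNA gave 0 genes in place of 2, and none of the other counts changed. Same-letter libraries did not deviate together (r from -0.27 to 0.13 over 9 pairs, against -0.24 to 0.28 for different letters). With 3 libraries per group, this check cannot exclude a pairing by letter. The depth leaves CXCL1 and SAA1 at few counts, which limits their precision.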
